A study of Homo sapiens with 9 samples.

Results

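CXCL8, PTGS2 and MMP10 are 3 secreted or membrane-bound effectors of inflammation, followed here across all 9 arrays of a study of silver nanoparticles in EA.hy926 cells. Each has 1 named probe set on the array, and all 3 were among the 12155 genes tested of 14884 named genes. The genes were chosen by their measured rise after 5 nm particles in earlier results of these same arrays. Every difference that involves the 5 nm arrays is therefore a description of the members and supports nothing further.

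EA.hy926 is an established line made by fusing endothelium of the human umbilical vein with A549, a lung carcinoma, so as a model of endothelium it is 1 hybrid line with a carcinoma parent. There were 3 arrays with 5 nm silver nanoparticles, 3 with 100 nm silver nanoparticles and 3 of unexposed control cells, numbered as replicates 1 to 3 in each group. Exposure lasted 6 h at roughly the LD50, the median lethal dose. The labels do not state mass concentrations, so particle size and mass dose cannot be told apart. The labels name no genetic change in any group.

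CXCL8, formerly IL8, is a chemokine that draws neutrophils through the receptors CXCR1 and CXCR2. PTGS2 is cyclooxygenase-2, the inducible enzyme that turns arachidonic acid into the precursor of prostaglandins, and MMP10 is stromelysin-2, a secreted metalloproteinase that cuts matrix proteins and activates other metalloproteinases. In endothelial cells all 3 are known as inducible genes. Mitogen-activated protein (MAP) kinases raise the activity of AP-1, a dimer of FOS, JUN and ATF family proteins, and NF-kB acts beside it on CXCL8 and PTGS2. MAP kinase signalling is also known to slow the decay of CXCL8 and PTGS2 transcripts, which carry AU-rich elements.

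The stretch of DNA before each start is shown because AP-1 and its neighbours are known to act there on these genes. The sequences are the 250 bases before the annotated start from RefSeq on GRCh38.p14, read 5′ to 3′ on the gene's strand: chr4:73740319-73740568 on the plus strand for CXCL8, chr1:186680424-186680673 on the minus strand for PTGS2 and chr11:102780629-102780878 on the minus strand for MMP10. Capitals mark matches to 5 motifs. These were AP-1 (TGANTCA), a half-site of the cyclic AMP response element or CRE (TGACG), C/EBP (TTGCNNAA) and NF-kB (GGANTTTCC), each searched on both strands, and the TATA box (TATAAA) on the gene's strand.
CXCL8: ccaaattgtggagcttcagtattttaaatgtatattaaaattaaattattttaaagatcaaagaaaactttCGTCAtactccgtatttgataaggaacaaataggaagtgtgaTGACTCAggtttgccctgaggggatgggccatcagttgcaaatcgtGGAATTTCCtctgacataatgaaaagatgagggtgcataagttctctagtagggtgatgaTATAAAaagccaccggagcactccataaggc
PTGS2: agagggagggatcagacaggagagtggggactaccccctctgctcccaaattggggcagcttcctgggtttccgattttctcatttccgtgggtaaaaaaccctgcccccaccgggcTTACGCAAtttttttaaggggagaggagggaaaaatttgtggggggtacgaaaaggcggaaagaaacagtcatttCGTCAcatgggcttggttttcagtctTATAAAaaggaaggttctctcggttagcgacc
MMP10: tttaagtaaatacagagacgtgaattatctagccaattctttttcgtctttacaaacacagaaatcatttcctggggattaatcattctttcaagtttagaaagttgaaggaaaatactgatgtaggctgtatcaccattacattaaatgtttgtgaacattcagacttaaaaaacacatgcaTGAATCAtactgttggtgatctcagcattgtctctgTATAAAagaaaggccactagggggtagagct

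CXCL8 held an AP-1 match at bases -137 to -131 before the start, an NF-kB match at -91 to -83 and a CRE half-site at -179 to -175. It held no match to the C/EBP letters. PTGS2 held a CRE half-site at -58 to -54 and a C/EBP match at -133 to -126, and these AP-1 and NF-kB letters are not in its window. MMP10 held an AP-1 match at -67 to -61 and no match to the CRE, C/EBP or NF-kB letters. The TATA match began at base -31 in CXCL8 and MMP10 and at base -32 in PTGS2. No match overlapped another. Among 27305 genes with a window of the same length, 6.60% held the AP-1 letters, 21.7% the CRE half-site, 9.13% the C/EBP letters, 1.47% the NF-kB letters and 7.17% the TATA letters. A match is a run of letters and was not tested for binding. Where no match is given, only these exact letters were absent. Sites with other letters were not searched, so a missing match does not show that a site is missing.

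**Figure D1:**
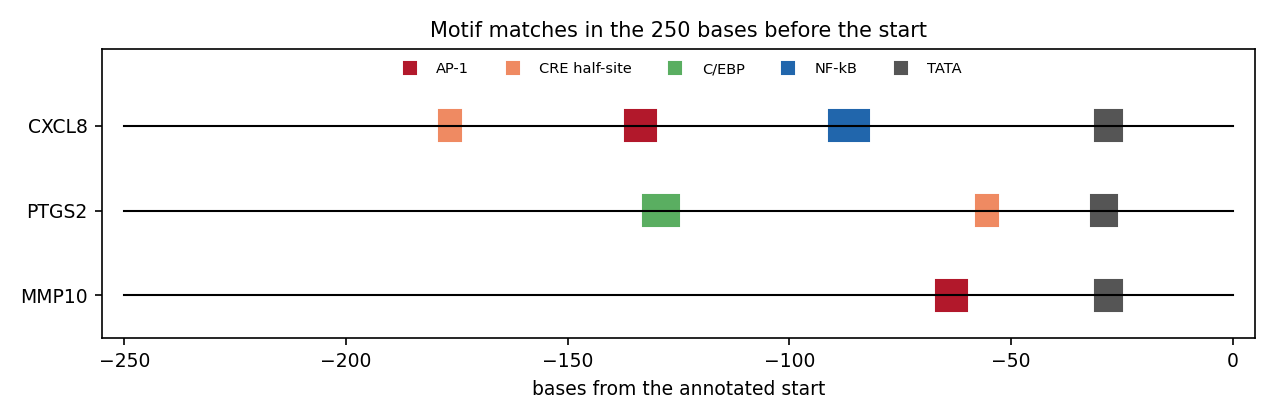
Motif matches (coloured boxes) in the 250 bases before the annotated start of each gene, with distance from the start in bases on the x axis. CXCL8 and MMP10 hold an AP-1 match, PTGS2 holds a CRE half-site, and each gene has a TATA match that begins at base -31 or -32.

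Markers of endothelium and of other cell types are described first. Of 14 endothelial markers, 10 had a named probe set, and 9 of these reached a log2 intensity of 5 on every array, among them PECAM1 (mean 9.77 in 5 nm, 9.93 in 100 nm and 9.95 in control cells); EMCN stayed below 5. Their summed intensity, on the log2 scale, was 13.50 to 14.02 on the 5 nm arrays, 13.81 to 14.13 on the 100 nm arrays and 13.81 to 14.13 on the control arrays. Of 8 named epithelial markers 6 to 7 reached 5 on each array in each group, led by KRT18, with summed intensities of 10.82 to 11.86, 10.97 to 12.01 and 11.06 to 11.97 on 5 nm, 100 nm and control arrays. Of 6 named leukocyte markers 4 to 6 reached 5, led by CD68, with sums of 11.68 to 12.38, 11.74 to 12.39 and 11.74 to 12.39 in the same groups; CD14 and S100A8 averaged below 5, and PTPRC had no named probe set. A log2 intensity of 5 is a low bar. It was reached on at least 3 arrays by 12155 of 14884 named genes, and array medians were 5.15 to 5.64. The marker counts therefore do not show the cells' identity. The part of other cell types in the results was not tested. Arrays of the same replicate number held identical values at many probe sets, which may come from normalizing them together, though no label says so. Differences below are therefore given within a replicate number as well as between group means.

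The first comparison asks how the particles change the level of the neutrophil chemokine. CXCL8 had log2 intensities of 9.91, 10.10 and 9.69 in replicates 1, 2 and 3 of 5 nm cells. On the 100 nm arrays it had 7.04, 7.07 and 7.35, and on the control arrays 6.71, 7.07 and 7.66. All 5 nm arrays lay above all others, by at least 2.03 over the highest control array, while the 100 nm and control arrays overlapped. The group means were 9.90 ± 0.21 with 5 nm, 7.15 ± 0.17 with 100 nm and 7.14 ± 0.48 in controls (SD, n = 3 each). The mean log2 difference between 5 nm and control cells was 2.76 (95% interval 2.18 to 3.34), or 6.77-fold. With arrays of a whole culture, more RNA per cell and a changed number of cells making it cannot be told apart.

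PTGS2 had log2 intensities of 11.44, 12.31 and 11.40 in replicates 1, 2 and 3 of 5 nm cells. It had 8.28, 8.64 and 10.19 on the 100 nm arrays and 8.41, 8.71 and 10.21 on the control arrays. The 5 nm arrays again lay above all others, but replicate 3 stood apart in both other groups: its control and 100 nm arrays were higher than those of replicates 1 and 2. The gap between the lowest 5 nm array and the highest control array was 1.19. The means were 11.72 ± 0.51 with 5 nm, 9.04 ± 1.01 with 100 nm and 9.11 ± 0.97 in controls (SD, n = 3 each). The mean log2 difference between 5 nm and control cells was 2.61 (95% interval 1.37 to 3.85), or 6.08-fold, and it was 3.16 without the control array of replicate 3. The value of 3.16 is from a fit that did not pair the replicate numbers.

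MMP10 had log2 intensities of 8.42, 9.38 and 8.97 in replicates 1, 2 and 3 of 5 nm cells, against 5.94, 5.93 and 6.21 with 100 nm particles and 5.60, 5.93 and 6.49 in controls. The 5 nm arrays did not overlap the others, and the smallest gap to a control array was 1.93. Its means were 8.92 ± 0.48 with 5 nm, 6.03 ± 0.16 with 100 nm and 6.00 ± 0.45 in controls (SD, n = 3 each). The mean log2 difference between 5 nm and control cells was 2.92 (95% interval 2.26 to 3.58), or 7.57-fold. The control arrays of MMP10 lay at 5.60 to 6.49, nearer to the floor of 5 for testing than those of the other members, and intensities of different probe sets do not rank the genes' RNA amounts.

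**Figure D2:**
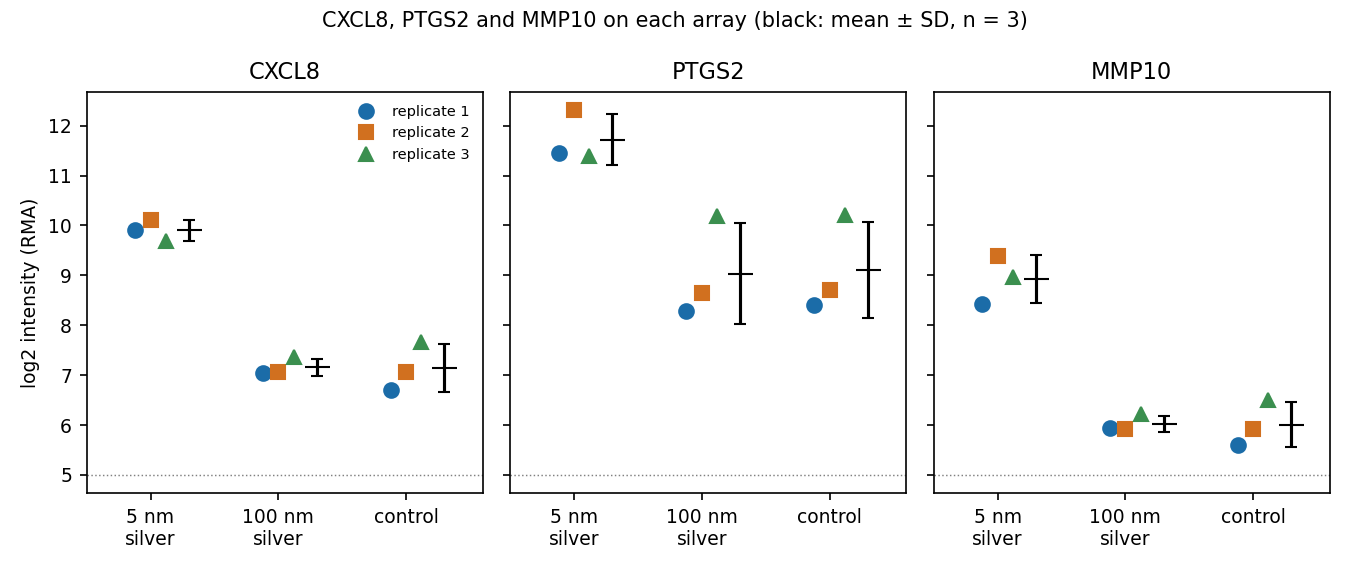
Log2 intensity (RMA) of CXCL8, PTGS2 and MMP10 on each array of the 5 nm, 100 nm and control groups, with a symbol for each replicate number and the mean ± SD (n = 3) in black; the dotted line is the floor of 5. The 5 nm arrays lie above all others for each gene, and for PTGS2 the 100 nm and control arrays of replicate 3 reach 10.19 and 10.21.

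The 3 mean differences lay between 2.61 and 2.92 on the log2 scale, and their steadiness varied. Within replicates 1, 2 and 3 the log2 difference between 5 nm and control cells was 3.21, 3.04 and 2.03 for CXCL8. It was 2.83, 3.46 and 2.48 for MMP10 and 3.03, 3.60 and 1.19 for PTGS2. The smallest difference of each gene was that of replicate 3, where the differences of all genes were also the least spread: their SD over genes was 0.213, 0.376 and 0.182 in replicates 1, 2 and 3, and 63, 201 and 43 genes exceeded 1. On the linear scale, PTGS2 was 8.17, 12.1 and 2.28 times the control of replicates 1, 2 and 3. CXCL8 was 9.23, 8.22 and 4.09 times its control, and MMP10 was 5.56 to 10.99 times. The SD of the 3 differences was 0.17 of their mean for MMP10, 0.23 for CXCL8 and 0.48 for PTGS2. Against controls MMP10 was thus the steadiest in relative terms and PTGS2 the least steady. Against 100 nm cells the same share was 0.13 for CXCL8, 0.17 for MMP10 and 0.48 for PTGS2, so CXCL8 was the steadiest there. With 3 differences each, these spreads were not tested against each other.

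All 3 members exceeded a log2 difference of 1 in every replicate number, as did 27 of the 12155 genes (0.222%), and CXCL8 and MMP10 exceeded a log2 difference of 2 in every number, as did 6 genes (0.0494%). Groups that do not overlap upward were found for 1.41% of genes. CXCL8 and MMP10 were among the 9 genes past an adjusted p of 0.05 in limma, all of them higher (0.0740%), and among the 36 higher genes (0.296%) when the replicate number was a block. PTGS2 passed in neither fit. Since the members were chosen on this comparison, nothing is read from these shares. By mean difference MMP10 ranked 5th, CXCL8 7th and PTGS2 8th of the tested genes, counted from the largest rise, and PTGS2 was 5th, 6th and 33rd within replicates 1, 2 and 3.

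**Figure D3:**
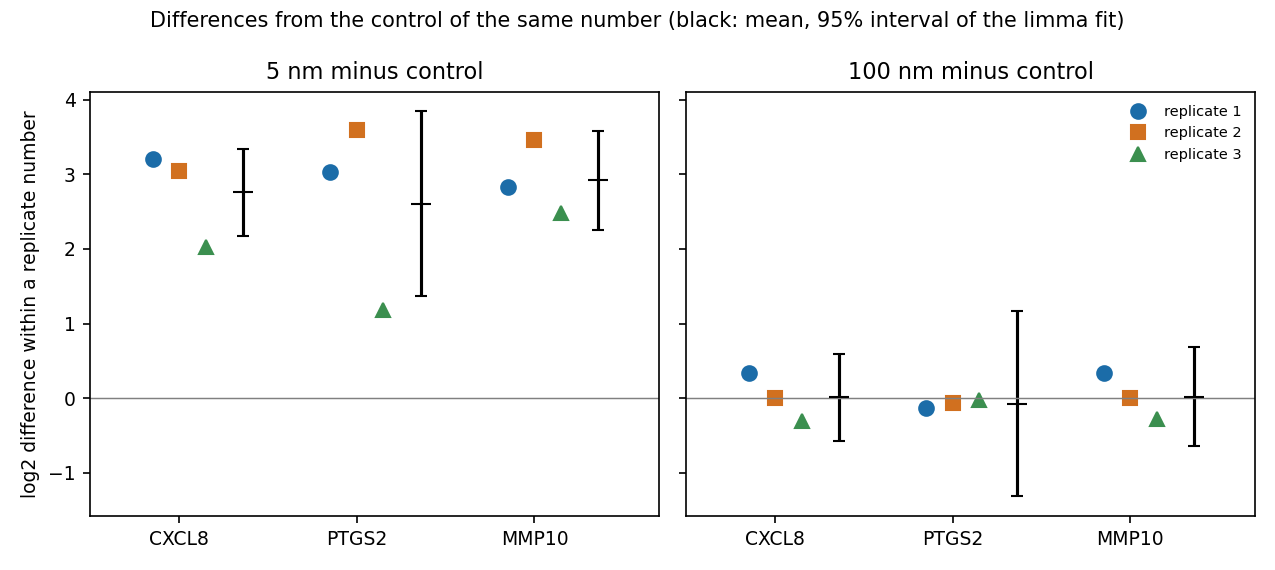
Log2 differences from the control array of the same replicate number for 5 nm (left) and 100 nm particles (right), with the mean and its 95% interval from limma in black. With 5 nm particles every difference lies above 1 and the lowest of each gene is replicate 3; with 100 nm particles they lie between -0.30 and 0.34.

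The comparison of 100 nm particles with controls, which shares the control arrays with the one above, gave no rise of the 3 genes beyond the spread. CXCL8 differed by 0.01 (95% interval -0.57 to 0.59, or 0.673 to 1.51 times the control), with 0.34, 0.00 and -0.30 in replicates 1, 2 and 3. MMP10 differed by 0.02 (-0.64 to 0.68, or 0.641 to 1.61 times), with 0.34, 0.00 and -0.28. PTGS2 differed by -0.08 (-1.32 to 1.16, or 0.401 to 2.24 times), with -0.13, -0.07 and -0.03. The adjusted p in limma was 1.0 for each gene with and without the replicate block. In that comparison 0 of 12155 genes passed (0%) in either fit, and 0 without and 33 with the block had an unadjusted p under 0.05. These intervals hold the spread between replicate numbers; within numbers the SD of the 3 differences was 0.05 for PTGS2, 0.32 for CXCL8 and 0.31 for MMP10. PTGS2 was lower by a little in every number, as were 1.41% of genes, and the exact 0.00 of CXCL8 and MMP10 in replicate 2 is a value that 59.5% of genes had there.

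Against 100 nm cells, the 5 nm cells were higher by 2.75 in CXCL8, 2.90 in MMP10 and 2.68 in PTGS2. Within replicates 1, 2 and 3 these differences were 2.87, 3.04 and 2.33 for CXCL8, 2.48, 3.46 and 2.76 for MMP10 and 3.16, 3.67 and 1.21 for PTGS2. Here too the groups did not overlap for any of the 3 genes, as for 1.37% of genes in that direction. CXCL8 and MMP10 were among the 8 genes higher at an adjusted p of 0.05 in limma (0.0658%) and the 35 with the block (0.288%), and PTGS2 was not. The SD of the CXCL8 differences was 0.37 here and 0.64 against controls, and that of MMP10 was 0.50 in both; the comparisons share the 5 nm arrays.

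The level of replicate 3 was then set against the mean of replicates 1 and 2 in each group. For PTGS2 it differed by -0.47 on 5 nm arrays, by 1.73 on 100 nm arrays and by 1.65 on control arrays, where the median gene differed by -0.20, -0.23 and -0.22. By this measure PTGS2 ranked 11 of 12155 genes in controls and 10 with 100 nm particles, counted from the highest, and 9168 on the 5 nm arrays. CXCL8 showed -0.32, 0.30 and 0.77 on 5 nm, 100 nm and control arrays, and MMP10 0.06, 0.28 and 0.73. In controls, 98.6% of genes lay below CXCL8 and 98.4% below MMP10 by this measure.

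Genes of the AP-1 family varied in this measure. FOS was higher in replicate 3 by 1.89, 2.44 and 2.19 on 5 nm, 100 nm and control arrays, and FOSB by 1.25, 2.35 and 2.07. ATF3 was higher by 0.03, 1.08 and 1.06, while JUNB differed by -0.87, 0.48 and 0.37. In controls JUN differed by -0.18, FOSL1 by -0.13 and FOSL2 by -0.17, near the median of all genes. EGR1, an immediate-early factor outside the AP-1 family that was chosen after its values were seen, was higher by 1.18, 2.53 and 2.37. In the list of AP-1 and related factors 8 of 15 members lay above the median of all genes on 5 nm arrays, 13 on 100 nm arrays and 13 on control arrays. Such counts were not particular to this list. In the same order of groups they were 12, 13 and 12 of 15 matrix metalloproteinases and 9, 11 and 10 of 13 NF-kB targets. They were lower for MAP kinases and their kinases, at 9, 8 and 9 of 21. IL11 differed by -1.12, 0.16 and 0.22. If each replicate number was normalized by itself, which no label states, a difference between numbers in normalization cannot be told apart from one between cultures.

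**Figure D4:**
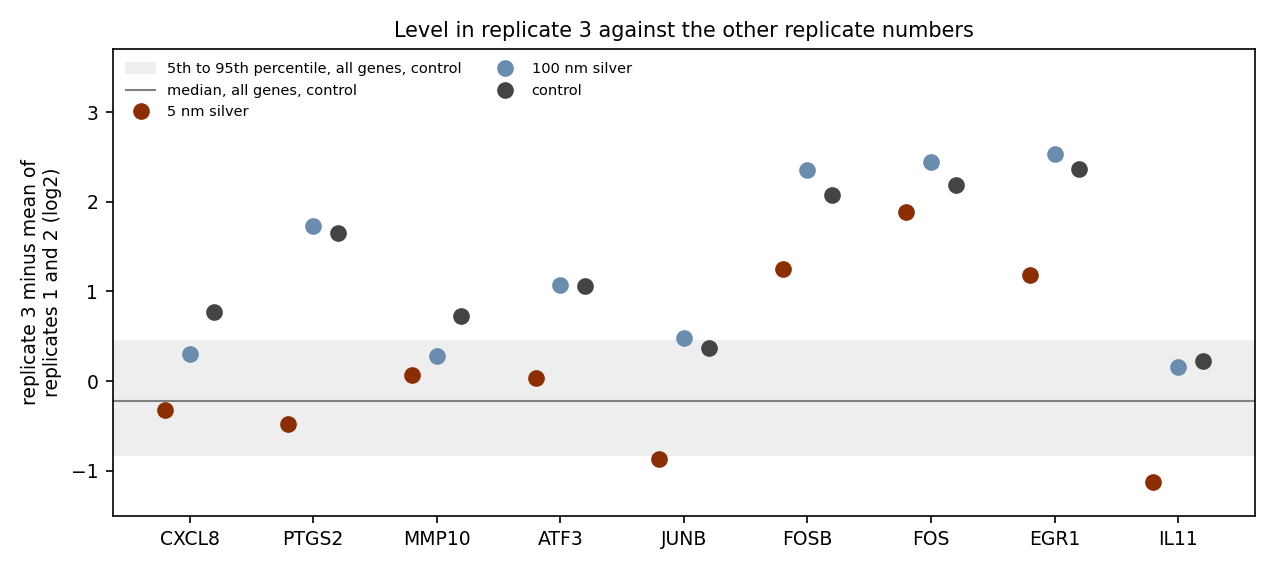
Log2 level in replicate 3 minus the mean of replicates 1 and 2 for the members, 4 AP-1 genes, EGR1 and IL11 on 5 nm, 100 nm and control arrays, with the 5th to 95th percentile and median of all tested genes in controls in grey. PTGS2, ATF3, FOSB, FOS and EGR1 lie above the band in 100 nm and control cells, and PTGS2 lies inside it with 5 nm particles.

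CXCL8 was the 1 chemokine ligand of its family past the threshold. As CXCL8 was chosen on this comparison, its call says nothing further about the family. Of all genes tested, 0.0740% were higher at this threshold. Of 16 CXC chemokine ligands, 15 had a named probe set and 8 were tested; 1 was higher, 0 were lower, and the list's median difference for 5 nm minus control was 0.04, against 0.00 for all genes. CXCL2, another ligand of CXCR2, had 7.85 ± 0.44 with 5 nm particles and 7.38 ± 0.09 in controls (SD, n = 3 each). Its differences were 0.90, 0.49 and 0.00 in replicates 1, 2 and 3 (adjusted p = 1 in limma). CXCL5 differed by 0.13, with 0.00 in replicate 1. CXCL3, CXCL6, CXCL9, CXCL10 and CXCL11 stayed under the floor, as did PPBP and CXCL13, and CXCL1 had no named probe set. Of the receptors and binding partners 0 of 6 passed; CXCR1 averaged 4.48 with 5 nm particles, 4.46 with 100 nm particles and 4.55 in controls, CXCR2 was under the floor, and SDC1, a heparan sulfate proteoglycan that binds chemokines, differed by -0.30 (-0.27, -0.54 and -0.08).

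PTGS2, also chosen on this comparison, was the largest difference in its pathway. Of 22 genes of prostanoid synthesis 13 were named and 11 tested, 0 passed in either direction with or without the block, and the median difference was 0.05. PTGS1, the constitutive cyclooxygenase, had 7.13 ± 0.28 with 5 nm particles and 7.24 ± 0.41 in controls (SD, n = 3 each), a difference of -0.11. PTGES, the inducible prostaglandin E synthase downstream of PTGS2, differed by 0.07, and PTGES3, a cytosolic synthase and co-chaperone, by 0.40 (0.18, 0.65 and 0.36; adjusted p = 1 in limma). Among 6 tested prostanoid receptors 0 passed. PTGER4, the EP4 receptor for prostaglandin E, was the largest, with 8.02 ± 0.69 with 5 nm particles and 8.93 ± 0.36 in controls (SD, n = 3 each). It was lower in each replicate, by -0.64, -1.40 and -0.68 (mean -0.91), without passing (adjusted p = 1 in limma and 0.18 with the replicate block); 13.4% of genes were lower in every number.

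MMP10 was the 1 metalloproteinase past the threshold. As MMP10 was chosen on this comparison, its call says nothing further about the family. Of all genes tested, 0.0740% were higher at this threshold. Of 23 family members 19 were named and 15 tested, 1 was higher, 0 were lower and the median difference was 0.00. MMP1, the interstitial collagenase and its neighbour in a gene cluster, was bright in all groups, at 12.85 ± 0.34 with 5 nm particles, 12.78 ± 0.40 with 100 nm particles and 12.80 ± 0.37 in controls (SD, n = 3 each), and differed by 0.05. MMP8, a collagenase of neutrophils, differed by 0.42, 0.00 and 2.22 in replicates 1, 2 and 3 and averaged 4.65 in controls, under the floor (adjusted p = 1 in limma). MMP14, the membrane-type activator of other metalloproteinases, differed by -0.19. MMP3, the close relative of MMP10, had no named probe set, nor did MMP2, MMP7 or MMP9. The inhibitors had 0 of 6 called: TIMP1 differed by 0.07, TIMP3 by -0.11 and RECK, a membrane-anchored inhibitor, by -0.37.

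Families known to regulate the 3 genes were examined by family. In the AP-1 list 15 of 22 genes were tested, 0 passed in either fit, and the median difference was 0.24, with 11 positive and 3 negative. In every replicate number 7 of 15 were higher, against 8.03% of all genes. ATF3, a stress-induced partner of JUN, had 8.73 ± 0.22 with 5 nm particles and 7.45 ± 0.61 in controls (SD, n = 3 each), with differences of 1.43, 1.82 and 0.60 (adjusted p = 0.984 in limma, and 0.159 with the replicate block). JUNB differed by 1.33, 1.82 and 0.33 (0.616 and 0.262), MAFG by 0.85 and FOSB by 0.75 (1.23, 0.82 and 0.20). The FOSB value depended on single control arrays: it was 0.15 without control replicate 1 and 1.44 without control replicate 3. Those 2 fits did not pair the replicate numbers. Among other genes of the FOS and JUN families, JUN differed by 0.17 and FOS by 0.12 (0.72, -0.27 and -0.08). FOSL1 was bright at 11.54 ± 0.17 with 5 nm particles and 11.51 ± 0.19 in controls (SD, n = 3 each), and differed by 0.03.

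Among the MAP kinases and their upstream kinases, of 21 tested genes 0 passed without the block and 3 were higher with it: MAPK6, an atypical MAP kinase (0.38; 0.42, 0.37 and 0.35; adjusted p = 0.0173 in limma with the block), MAP3K2, an upstream kinase (0.28; adjusted p = 0.0303), and MAP2K1, the kinase of the ERK pair (0.37; adjusted p = 0.0443). With the block 0.296% of genes were higher and 0.354% lower. Their phosphatases, which are induced by MAP kinase activity and shut it off, had 0 of 10 called in either fit and a median of 0.14. DUSP1 had 11.26 ± 0.95 with 5 nm particles and 10.09 ± 0.30 in controls (SD, n = 3 each), with differences of 1.27, 1.78 and 0.46 (adjusted p = 1 in limma, and 0.202 with the replicate block). DUSP16 differed by 0.92 and DUSP5 by 0.69, while DUSP7 differed by -0.41. HBEGF, a ligand of the epidermal growth factor receptor, differed by 0.60, 1.12 and 0.49 (adjusted p = 1 in limma, and 0.154 with the replicate block), and EGFR by -0.35.

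For NF-kB, of 15 subunits and inhibitors 8 were named and tested, 0 passed, and the median was 0.01; RELA differed by 0.00, NFKB1 by 0.09, RELB by 0.14, REL by -0.21 and BCL3 by -0.33. The feedback inhibitors NFKBIA and TNFAIP3 had no named probe set. Of 23 inflammatory effectors known as NF-kB targets 13 were tested, 0 passed, and the median was 0.04. ICAM1, a leukocyte adhesion molecule, differed by 0.28 (0.64, 0.15 and 0.04), CCL2, a monocyte chemokine, by 0.16 (0.58, 0.00 and -0.09) and SELE, the endothelial selectin, by 0.00 at a mean of 4.91 in each group. LIF, a cytokine of the interleukin-6 family, had the largest difference of that list, 1.79 (2.18, 2.39 and 0.79; adjusted p = 0.227 in limma, and 0.142 with the replicate block). RELA and SELE differed by exactly 0 in every replicate number. An exact 0 was held by 44.8%, 40.6% and 55.5% of genes in replicates 1, 2 and 3. Of 11 proteins that bind AU-rich elements 3 were tested and differed by 0.00 to 0.08; ZFP36 had no named probe set. Of 7 plasminogen activator genes 0 were tested.

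**Figure D5:**
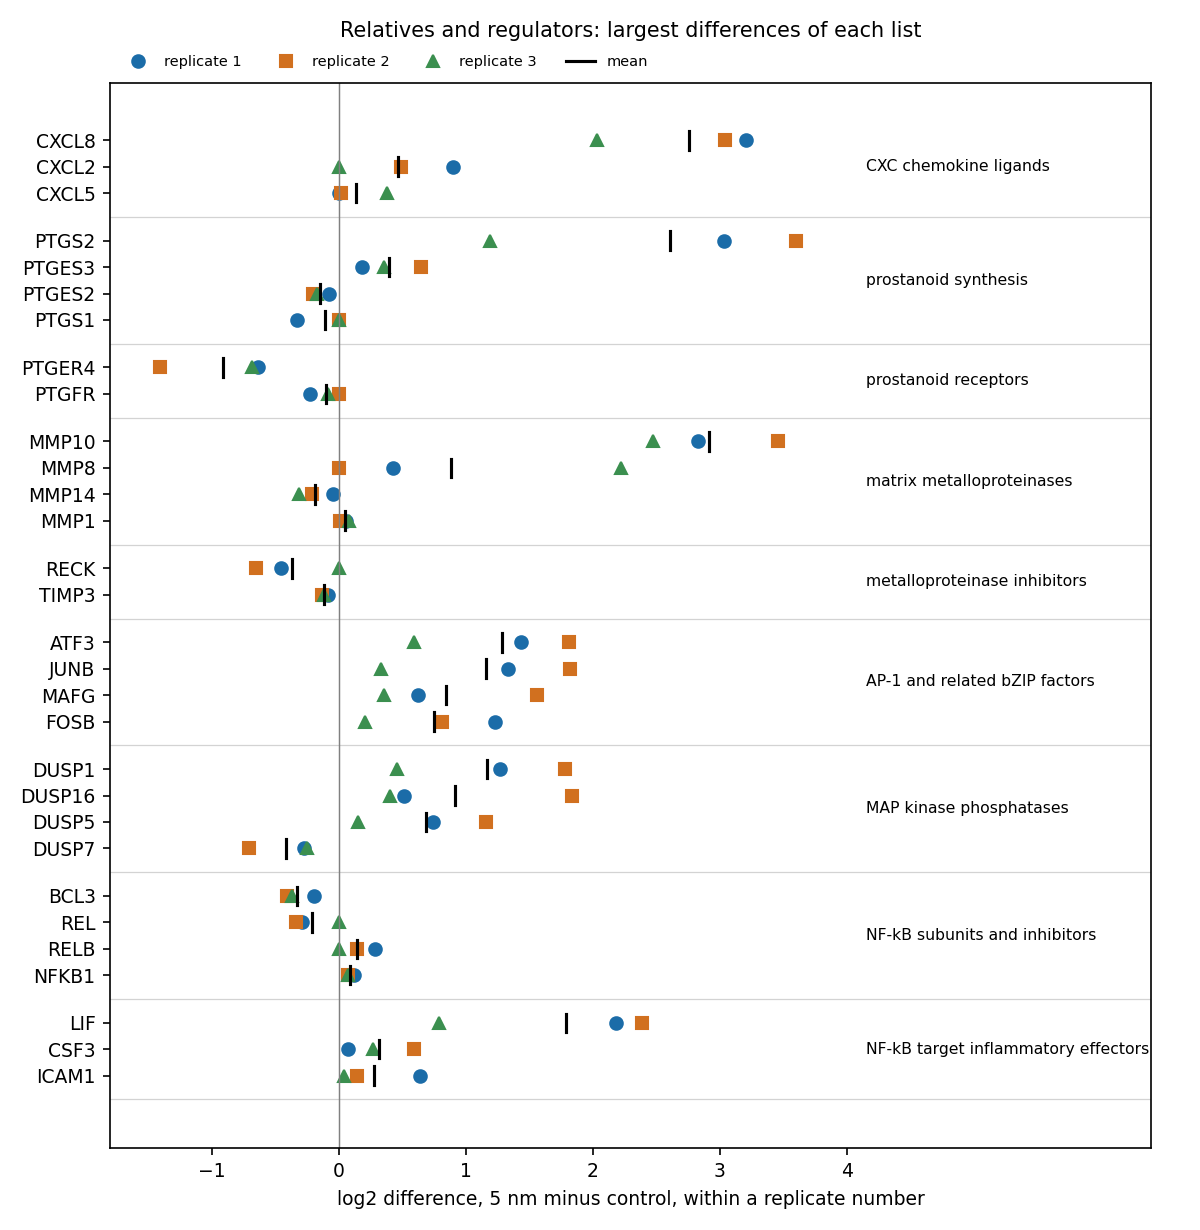
Log2 differences between 5 nm and control cells within replicates 1, 2 and 3 (symbols) and their mean (black bar) for the tested genes with the largest differences in each list shown. Receptors and partners of CXCL8, MAP kinases and their kinases, AU-rich element binding proteins and EGFR ligands are not drawn. CXCL8, PTGS2 and MMP10 lie above 1 in every replicate and their relatives CXCL2, PTGS1 and MMP1 have means of 0.46, -0.11 and 0.05.

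Which genes of the array were most like each member was described by the root mean square distance over 6 differences, those of 5 nm and 100 nm cells from the control in replicates 1, 2 and 3. Among 12154 genes the nearest to CXCL8 was MMP10 (distance 0.29 on the log2 scale), followed by PTGS2 (0.48), IL11 (0.52), DDIT3 (0.54) and SESN2 (0.56). The nearest to MMP10 was CXCL8, then IL11 (0.38), DDIT3 (0.45), HSPA6 (0.47) and HMOX1 (0.53), with PTGS2 in 7th place (0.58). PTGS2 had other neighbours: DDIT3 (0.37), SESN2 (0.37) and the histone demethylase KDM7A (0.40) came before CXCL8 (0.48) and IL11 (0.52). In replicates 1, 2 and 3, DDIT3 differed by 2.63, 4.09 and 1.76, and KDM7A by 2.26, 3.10 and 0.98. Few genes reach such sizes, so large rises have few neighbours to be near to.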

How the data were processed

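The authors deposited log2 RMA intensities for 53617 probe sets and 9 arrays. The submitters' processing notes name Affymetrix Expression Console 1.3.1; 300 ng of RNA went into each array, per the labels' protocols. Array medians were 5.15 to 5.64. GEO's platform table named 1 gene for 16098 probe sets, several for 0 and none for 37519; all 16098 symbols were updated through the Entrez identifier. The probe set with the highest mean stood for each of 14884 genes, and the 12155 genes that reached 5 on at least 3 arrays were tested.

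Groups were compared in R 4.3.3 with limma 3.58.1 on the group means of all 9 arrays, with 6 residual degrees of freedom and Benjamini-Hochberg adjustment over all genes; 18 alternatives were run. The fit was tested on simulated data. Their residuals were drawn independently for each array, without the identical values that the real arrays of a replicate number hold. The simulation therefore cannot show how those identical values affect the fits. Whether replicates are separate cultures is not stated. The p-values then measure only the spread between these samples, possibly technical, and 3 arrays per group limit the precision.

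The replicate numbers pair the arrays. Deviations from group means correlated at 0.762 to 0.967 between arrays of the same number (9 pairs) and at -0.582 to -0.265 otherwise (18 pairs), and 46.9% to 57.6% of probe sets held identical values on arrays of the same number, as RMA run on 3 arrays at a time would leave; no label or note states that it was run so. Adding the number as a block leaves 4 residual degrees of freedom.

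The members, the lists and the naming rule were chosen with earlier results of these data known. Named genes were the members, list members past the threshold or up to 4 with the largest differences, a fixed set of relatives, and the 5 nearest genes of each member.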

Additional observations from a re-analysis of the deposited data

How the results depend on the processing

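The log2 differences of CXCL8, PTGS2 and MMP10 in the 3 comparisons were recomputed under 18 alternatives: of 162 values 156 moved by less than the SD of the differences within replicate numbers. The remaining 6 were PTGS2 in 100 nm minus control, -0.65 to 0.47 when 1 array of either group was left out. The fits with 1 array left out did not pair the replicate numbers. Within replicates 1, 2 and 3 that PTGS2 difference was -0.13, -0.07 and -0.03. Of 2847 such values of the other named genes, 2363 stayed within that SD and 484 moved by more. A change of sign was counted only for genes past the threshold, where it occurred in 0. Many of these values could not move. A block, a filter, an intensity trend or fewer groups keeps a gene's mean difference. Leaving out an array of the group not compared keeps it too, and each member has 1 probe set to average. The counts are therefore no measure of robustness. For 5 nm minus control, leaving out 1 array gave 2.54 to 3.02 for CXCL8, 2.26 to 3.16 for PTGS2 and 2.69 to 3.17 for MMP10. In that comparison CXCL8 was past the threshold in 17 of 18 alternatives, MMP10 in 16 and PTGS2 in 0, given as a description since the members were chosen on it. CXCL8 and MMP10 missed it with the replicate block fitted to a single pair of groups, and MMP10 also with arrays centred on their medians.

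Counts of genes past the threshold depended more on the setting. For 5 nm minus control 9 genes became 79 with the replicate block, 0 with that block fitted to a single pair of groups, 15 with a floor of 6, 4 with arrays centred on their medians and 19 with quantile normalization. For 5 nm minus 100 nm 8 genes became 75, 0, 15, 4 and 21 in the same order, and 13 with an intensity trend and robust variance. Leaving out 1 array gave 6 to 15 and 6 to 19 genes; without the 5 nm array of replicate 3 the counts were 15 and 19. For 100 nm minus control the count was 0 throughout. Why the counts differ between settings was not tested.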

Other observations

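The log2 gap between the probe sets of CXCL8 and MMP10 was nearly constant where no 5 nm particle was present, a pattern noticed after the values were seen. CXCL8 minus MMP10 was 1.11, 1.14 and 1.14 in replicates 1, 2 and 3 of 100 nm cells and 1.11, 1.14 and 1.16 in controls, an SD of 0.02 over 6 arrays. Replicate 2 held identical values in both groups, 7.07 for CXCL8 and 5.93 for MMP10, so these are not 6 separate readings. By that SD, MMP10 was the nearest of 12154 genes to CXCL8. Over the same arrays the SD of the gap was 0.63 for CXCL8 minus PTGS2 and 0.64 for MMP10 minus PTGS2. On the 5 nm arrays the gap of CXCL8 over MMP10 was 1.49, 0.72 and 0.72 in replicates 1, 2 and 3. Replicate 1 thus lay above the range of 1.11 to 1.16 on the other 6 arrays, and replicates 2 and 3 lay below it. The 6 arrays may share normalization within a replicate number, which no label states; the cause of the constancy was not tested.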
